A study of Mus musculus musculus x Mus musculus castaneus with 8 samples.

Results

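The integrated stress response genes described here are 10 listed genes: the transcription factor genes Atf4, Ddit3 and Atf3, the amino acid supply genes Asns, Psat1, Phgdh and Slc7a11, and the regulator genes Chac1, Trib3 and Sesn2. They were chosen by name, with earlier results of these data known, and all 10 were found among the 24421 genes of the composite count table. All 10 were also among the 12643 genes that passed the filter on low counts. Slc7a11 reached the filter's level of 1.34 CPM (counts scaled to a common library size) only in 5azadC replicate 1 and in replicate 1 of the combination, so it entered the test through groups in which it was high. Atf3 reached that level in every library except untreated replicate 1, so its entry also rested on the treated groups, in which it was high.

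The integrated stress response slows general protein synthesis when kinases phosphorylate the translation factor eIF2. The mRNA of the transcription factor ATF4 is then translated more, and ATF4, with partners such as CHOP (the product of Ddit3), switches on genes for amino acid synthesis and uptake, for tRNA charging and for feedback on the response itself. The kinases that start it answer to haem shortage, double-stranded RNA, unfolded protein in the endoplasmic reticulum and amino acid shortage. RNA levels do not measure eIF2 phosphorylation or the translation of Atf4.

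Total RNA was sequenced from tail fibroblasts of female F1 hybrids of Mus musculus musculus and Mus musculus castaneus, in 4 groups of 2 libraries. The first group received 5azadC (5-aza-2'-deoxycytidine, which blocks the DNA methyltransferases) and the next VX680 (an inhibitor of the Aurora kinases, which act in mitosis). The third received both drugs, and the untreated group received the solvent DMSO, which was brought to an equal volume in every condition. Cells were plated on 15 cm dishes and grown for 72 h, with drugs added at 24 h. The labels give no drug dose, and they do not say whether the 2 libraries of a group were separate cultures or animals, so p-values here reflect only the variation among the libraries, which may be technical.

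Libraries held between 6908503 and 11169532 reads in genes, and replicates spread by 2.76 (combination) to 20 (5azadC) times counting error (chi-square per degree of freedom). All 9 fibroblast markers were detected in every group, and their summed level was 18100 to 22300 CPM with 5azadC, 13200 to 13700 with VX680, 11000 to 11200 with both drugs and 31100 to 35200 in untreated cells. Keratinocyte, endothelial, skeletal muscle, melanocyte, chondrocyte and adipocyte markers each summed to at most 5.59 CPM in any library, and leukocyte markers (of which Ptprc had 0 reads in 3 of the 4 groups) to between 15.4 and 24.9 CPM. The markers did not move together. Of the 8 that passed the filter (Lum did not), the collagen genes Col1a1, Col1a2 and Col3a1, Pdgfra and Dcn fell in every treated group, and Pdgfrb fell with VX680 and with both drugs. Thy1 and Vim rose in every treated group, by 0.87, 1.06 and 1.05 in log2 for Thy1 and by 0.69, 0.61 and 0.84 for Vim with 5azadC, VX680 and both (edgeR, adjusted p at most 8.92e-05). In bulk RNA, fewer cells of a type and less RNA per cell cannot be told apart, and the part of these marker changes in the results below was not tested. With the authors' scaling of libraries in place of TMM, the median log2 change of all genes moved by about 0.1 in every comparison of a VX680-containing group with a group without it. The share of called genes that were higher was then 61.8% for VX680 against untreated (51.5% with TMM), 58.9% for the combination against 5azadC (40.2%) and 37.9% for 5azadC against VX680 (59.1%).

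**Figure D1:**
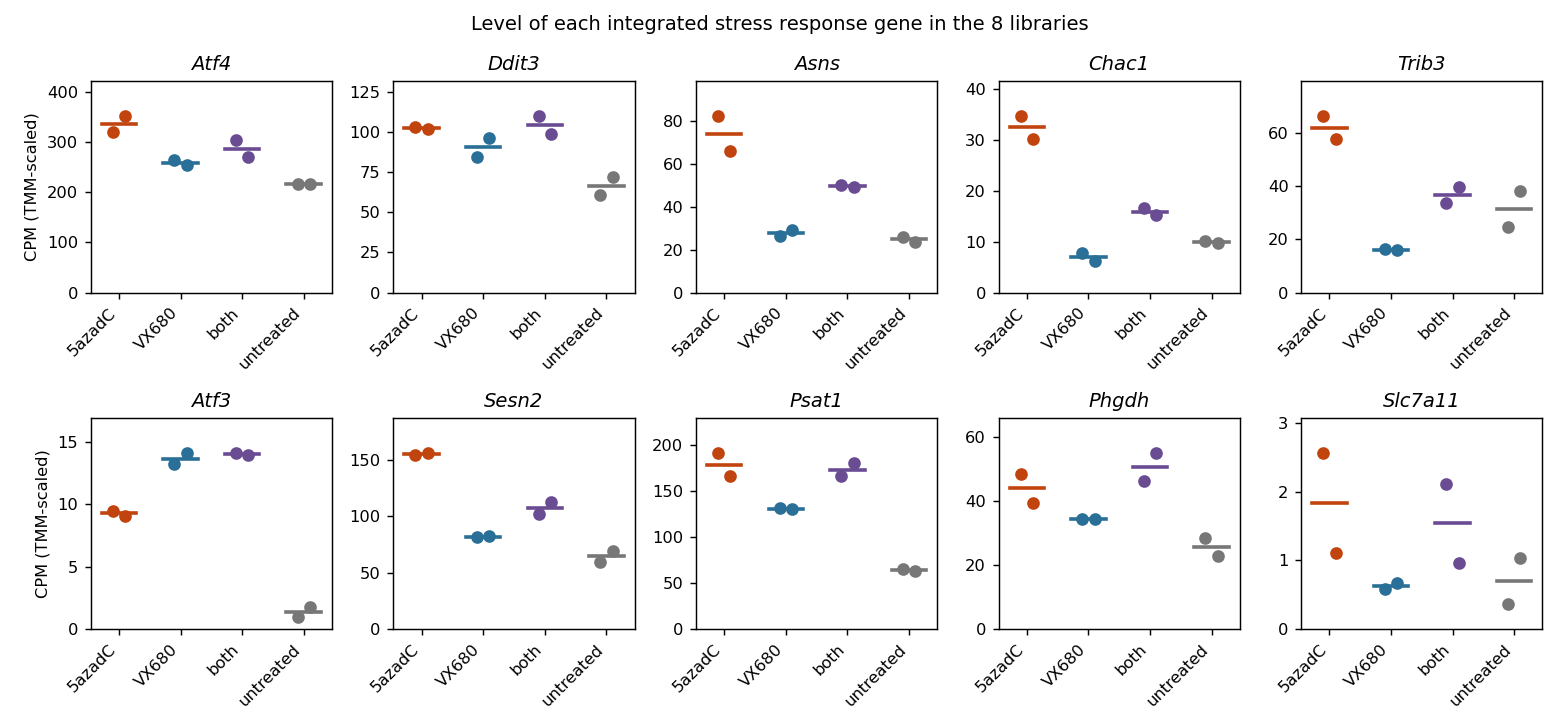
Level of each of the 10 genes in CPM (scaled by TMM, vertical axes from 0) in the 8 libraries, with a point per library and a line at the mean of each group. Asns, Chac1, Trib3 and Sesn2 were highest in the 5azadC libraries, whereas Atf3 was lowest in untreated libraries (0.997 and 1.76 CPM) and stood above 9 CPM in every treated library.

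In cells treated with 5azadC, 9 of the 10 genes rose and none fell, with Slc7a11 not called, in a comparison where 22.6% of the 12643 genes tested rose, 19.6% fell and 42.2% were called in either direction (edgeR, adjusted p under 0.05). The median log2 change of the 10 was 1.37, beside 0 for all genes tested. With VX680, 6 rose and 1 (Trib3) fell, while 23.8% of all genes rose, 22.4% fell and 46.1% were called, and the median of the 10 was 0.30. With both drugs 8 rose and none fell, while 28.4% of all genes rose, 27.3% fell and 55.7% were called, and the median of the 10 was 0.85. All 3 medians include Slc7a11 and Atf3, which entered the test through groups in which they were high, and all 3 counts of risen genes include Atf3. The uncalled log2 changes of Slc7a11, 1.56 with 5azadC and 1.27 with both drugs, lay above those medians. These 3 comparisons share the untreated libraries. The VX680 count depended on single libraries: fewer than 7 were called when any 1 untreated or VX680 library was left out. The calls over all genes, 5834 with all libraries, also fell in each of these cases.

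Levels between genes were compared per kilobase of the gene length in the authors' table. In untreated cells Atf4 was the most abundant of the 10, at 126 CPM per kb, followed by Ddit3 at 76.9, Psat1 at 29.6 and Sesn2 at 24.5. Trib3 (15.3), Phgdh (13.9) and Asns (13) lay close together, then came Chac1 at 6.34, Atf3 at 0.7 and Slc7a11 at 0.0754 CPM per kb. The order of Trib3, Phgdh and Asns is not resolved, because the untreated libraries alone spanned 12 to 18.6 CPM per kb for Trib3, 12.4 to 15.3 for Phgdh and 12.3 to 13.7 for Asns. The summed level of the 10 genes was 1010 and 980 CPM in 5azadC libraries, 659 and 663 in VX680 libraries, 844 and 836 in combination libraries, and 493 and 518 in untreated libraries.

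Among the transcription factors, Atf4 and Ddit3 rose modestly and Atf3 several-fold. Atf4 (chromosome 15) had 319 and 351 CPM with 5azadC, 264 and 253 with VX680, 303 and 269 with both drugs, and 216 and 217 in untreated cells. Every treated library lay above both untreated ones. Separation of groups of 2 libraries is common in these data. Between the combination and VX680, 56% of all genes tested did not overlap, while 6.5% were called (edgeR, adjusted p under 0.05). The log2 change was 0.63 ± 0.09 with 5azadC (adjusted p = 0.000115), 0.26 ± 0.09 with VX680 (adjusted p = 0.0353) and 0.40 ± 0.09 with both (adjusted p = 0.00214). Here and below, ± after a log2 change is the SE from the edgeR fit, whose spread is shared over all 8 libraries. The VX680 call for Atf4 was lost without any 1 of the 4 libraries compared (adjusted p between 0.107 and 0.197) and without combination replicate 2 (0.0503).

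Ddit3 (chromosome 10), whose product CHOP is a transcription factor known for its part in stress-induced cell death, had 103 and 102 CPM with 5azadC. It had 84.7 and 96.7 CPM with VX680, 110 and 98.9 with both drugs, and 60.8 and 72.3 in untreated cells. No treated library overlapped the untreated ones. Its rises were 0.63 ± 0.11, 0.45 ± 0.11 and 0.65 ± 0.11 in log2 with 5azadC, VX680 and both, with adjusted p = 0.000522, 0.00495 and 0.000237. Without untreated replicate 1 or VX680 replicate 2 the VX680 call was lost (adjusted p = 0.0879 and 0.0763).

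Atf3 (chromosome 1) encodes a transcription factor induced by many stresses and known as a target of both ATF4 and p53. Its reads numbered 85 and 66 with 5azadC, 134 and 106 with VX680, 100 and 101 with both drugs, and 11 and 12 in untreated cells. In CPM these were 9.48 and 9.05, 13.2 and 14.1, 14.1 and 13.9, and 0.997 and 1.76. All treated libraries exceeded all untreated ones. The fitted change was 7.09-fold with 5azadC (95% interval 4.44 to 11.3), 10.4-fold with VX680 (6.63 to 16.4) and 10.7-fold with both (6.8 to 16.9). Adjusted p was 1.09e-05, 1.29e-06 and 6.18e-07. Atf3 was thus the gene with the largest fitted change of the 10 in all 3 comparisons with untreated cells. That size rests on 11 and 12 untreated reads. Untreated replicate 1 lay below the filter's level, so the gene entered the test through treated groups, and its rank is a description only.

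**Figure D2:**
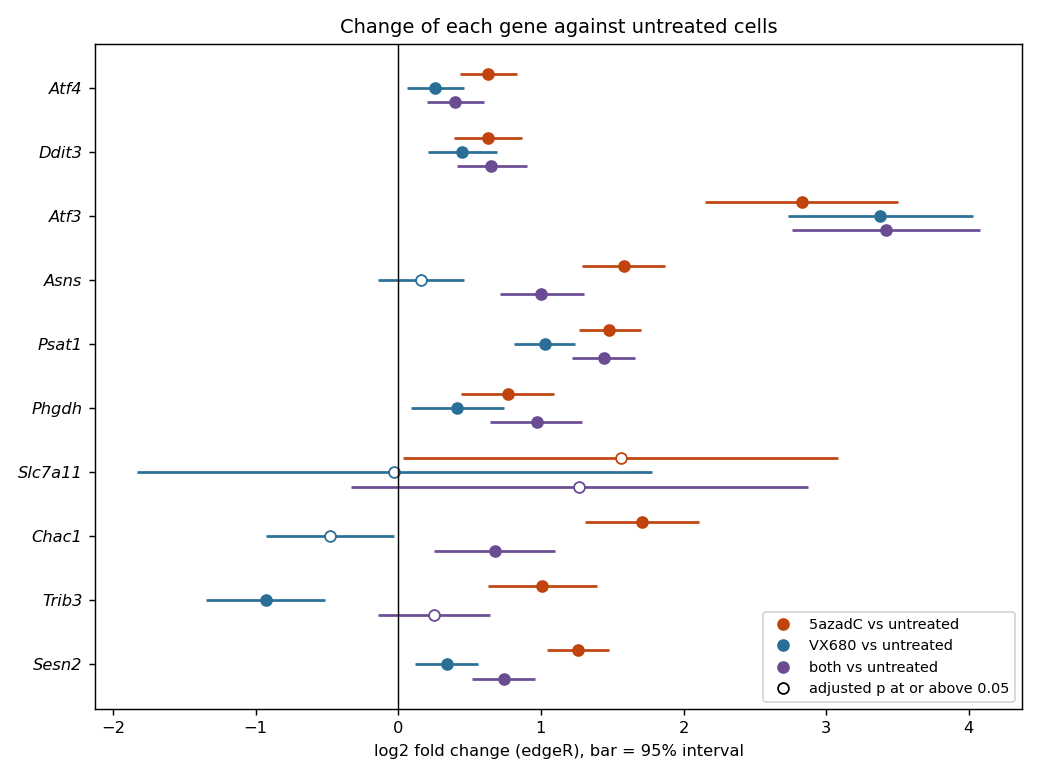
Log2 fold change of each gene with 5azadC, VX680 or both drugs against untreated cells (edgeR, 2 libraries per group; bars are 95% intervals and open points have an adjusted p of at least 0.05). Atf3 lies furthest to the right, Trib3 and Chac1 are placed on opposite sides of 0 with 5azadC (1.01 and 1.71) and VX680 (-0.93 and -0.48), and the intervals of Slc7a11 are the widest.

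Of the amino acid supply genes, Asns rose with 5azadC and was not called with VX680 alone. The serine synthesis genes Psat1 and Phgdh were called higher in all treated groups. Differences between genes were not tested, and the VX680 intervals of Asns and Phgdh (0.09 to 0.74) overlapped. Asns (chromosome 6), the enzyme that makes asparagine, had 82.3 and 66.2 CPM with 5azadC, 26.6 and 29.2 with VX680, 50.2 and 49.5 with both drugs, and 26.1 and 23.5 in untreated cells. The 5azadC libraries were highest and the combination libraries came next. No pair of groups overlapped, though the lower VX680 library (26.6) stood just above the higher untreated one (26.1). The change was 2.99-fold with 5azadC (log2 1.58 ± 0.13, adjusted p = 1.08e-06) and 2-fold with both drugs (log2 1 ± 0.14, adjusted p = 3.05e-05). With VX680 it was 0.16 ± 0.14 in log2, with a 95% interval of -0.14 to 0.46 (adjusted p = 0.374).

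Psat1 (chromosome 19), the aminotransferase of serine synthesis, had 191 and 166 CPM with 5azadC, 131 and 130 with VX680, 166 and 180 with both, and 65.2 and 62.6 in untreated cells. Treated and untreated libraries were far apart, while 5azadC and combination libraries overlapped. It rose 2.80-fold with 5azadC (adjusted p = 1.64e-07), 2.04-fold with VX680 (adjusted p = 2.93e-06) and 2.71-fold with both (adjusted p = 7e-08).

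Phgdh (chromosome 3), which catalyses the first step of serine synthesis, had 48.5 and 39.6 CPM with 5azadC, 34.5 and 34.6 with VX680, 46.4 and 55.1 with both, and 28.5 and 23.0 in untreated cells. The groups stood in the order combination, 5azadC, VX680 and untreated, with the first of these overlapping the next. The log2 changes were 0.77 ± 0.15 (adjusted p = 0.00109), 0.41 ± 0.15 (adjusted p = 0.0391) and 0.97 ± 0.15 (adjusted p = 9.63e-05) with 5azadC, VX680 and both. The VX680 call was lost with DESeq2 (adjusted p = 0.0836) and without untreated replicate 2, where the log2 change was 0.27, or either VX680 replicate (0.247, 0.135 and 0.132).

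Slc7a11 (chromosome 3), the transport subunit of the cystine and glutamate exchanger, was close to the limit of detection. It had 23 and 8 reads with 5azadC, 6 and 5 with VX680, 15 and 7 with both drugs, and 4 and 7 in untreated cells. In the 5azadC group and in the combination, replicate 1 was more than 2-fold above replicate 2. None of its 3 comparisons with untreated cells was called (log2 1.56 ± 0.71 with 5azadC, adjusted p = 0.0941; -0.03 ± 0.84 with VX680, adjusted p = 0.982; 1.27 ± 0.74 with both, adjusted p = 0.162). Without 5azadC replicate 2 that comparison gave a log2 change of 2 with an adjusted p of 0.0445, so whether it was called depended on that library.

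The 3 regulator genes, Chac1, Trib3 and Sesn2, were all highest with 5azadC. Chac1 (chromosome 2), whose enzyme breaks down glutathione, had 34.7 and 30.3 CPM with 5azadC, 7.85 and 6.26 with VX680, 16.6 and 15.2 with both drugs, and 10.2 and 9.67 in untreated cells. VX680 libraries were the lowest and 5azadC libraries the highest, with no overlap anywhere. The change was 3.27-fold with 5azadC (log2 1.71 ± 0.19, adjusted p = 9.92e-06) and 1.60-fold with both (0.68 ± 0.20, adjusted p = 0.00957). With VX680 it was -0.48 ± 0.21, with an adjusted p of 0.0744. Without combination replicate 1 the rise with both drugs was no longer called (adjusted p = 0.0633).

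Trib3 (chromosome 2), a pseudokinase that restrains ATF4 and CHOP, had 66.2 and 57.7 CPM with 5azadC, 16.4 and 15.8 with VX680, 33.5 and 39.7 with both drugs, and 24.5 and 38.0 in untreated cells. It was the only one of the 10 genes that passed the test in opposite directions with the single drugs. It rose by 1.01 ± 0.18 in log2 with 5azadC (adjusted p = 0.000441) and fell by 0.93 ± 0.19 with VX680 (adjusted p = 0.00144). The combination overlapped the untreated libraries (0.25 ± 0.18, adjusted p = 0.259). The untreated libraries were themselves far apart, with replicate 2 the higher, and the VX680 change was -1.25 without untreated replicate 1 and -0.61 without untreated replicate 2. It was called in both cases. The change with both drugs was -0.07 (adjusted p = 0.768) without untreated replicate 1 and 0.57 (adjusted p = 0.0169, called) without untreated replicate 2, so its direction and its call depended on the untreated library kept.

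Sesn2 (chromosome 4), a leucine sensor that holds back the growth kinase complex mTORC1 and a known target of ATF4 and p53, had 154 and 156 CPM with 5azadC. It had 81.2 and 82.3 CPM with VX680, 102 and 113 with both drugs, and 59.9 and 69.6 in untreated cells. The 4 groups did not overlap. It rose 2.40-fold with 5azadC (adjusted p = 7.54e-07), 1.27-fold with VX680 (adjusted p = 0.0154) and 1.67-fold with both (adjusted p = 3.9e-05). The VX680 call was lost without untreated replicate 1, where the log2 change was 0.21 instead of 0.34, or either VX680 replicate (adjusted p = 0.188, 0.0770 and 0.0895).

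The single drugs were compared directly to see which gene stood at different levels under them. With 5azadC, 6 of the 10 genes were higher than with VX680 and none was called lower, while 9.33% of all genes were higher, 6.47% lower and 15.8% called in all. Chac1 was 4.57-fold higher (adjusted p = 8.81e-06), Trib3 3.84-fold (adjusted p = 1.82e-05), Asns 2.67-fold (adjusted p = 1.28e-05) and Sesn2 1.90-fold (adjusted p = 4.42e-05). Psat1 (1.37-fold) and Atf4 (1.30-fold) also passed, with adjusted p = 0.00572 and 0.0136. Both of these calls were lost without VX680 replicate 1 or 2 (4 genes called in each case), and that for Atf4 also under the authors' scaling (adjusted p = 0.0622). Atf3 lay lower with 5azadC, by -0.55 ± 0.23 in log2, without passing (adjusted p = 0.127). Ddit3 differed by 0.18 (95% interval -0.06 to 0.42) and Phgdh by 0.36 (0.04 to 0.67), and neither was called (adjusted p = 0.304 and 0.122, and 0.0323 for Phgdh without 5azadC replicate 2).

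When VX680 was added to 5azadC, 4 of the 10 genes fell against 5azadC alone and none rose, while 14.8% of all genes fell, 9.98% rose and 24.8% were called. These were Chac1 (15.9 ± 0.998 CPM with both drugs against 32.5 ± 3.08 with 5azadC, SD over 2 libraries), Trib3 (36.6 ± 4.44 against 62 ± 6), Asns (49.9 ± 0.461 against 74.3 ± 11.3) and Sesn2 (108 ± 7.34 against 155 ± 2.11). Their log2 changes were -1.03 ± 0.18, -0.76 ± 0.18, -0.58 ± 0.13 and -0.53 ± 0.10, with adjusted p = 0.00104, 0.00638, 0.00485 and 0.00183. The Trib3 call was lost without combination replicate 1 (adjusted p = 0.0822). The same 4 had the highest ratios of 5azadC to VX680 among the 6 genes called in that comparison, which shares the 5azadC libraries. The other 6 were not called: Psat1 changed by -0.04 (95% interval -0.25 to 0.16), Ddit3 by 0.02 (-0.22 to 0.26) and Phgdh by 0.20 (-0.11 to 0.51). Atf4 changed by -0.23 (adjusted p = 0.0892) and was called without 5azadC replicate 1 (-0.30, adjusted p = 0.0242), and Atf3, at 0.59 (adjusted p = 0.0819), was called under the authors' scaling (0.70, adjusted p = 0.0426).

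When 5azadC was added to VX680, 6 genes rose against VX680 alone and none fell, in a comparison where 2.45% of all genes rose, 4.05% fell and 6.5% were called. Trib3 rose 2.27-fold (adjusted p = 0.00316), Chac1 2.23-fold (adjusted p = 0.00483), Asns 1.79-fold (adjusted p = 0.00280), Phgdh 1.47-fold (adjusted p = 0.0384), Psat1 1.33-fold (adjusted p = 0.0229) and Sesn2 1.32-fold (adjusted p = 0.0332). The combination and VX680 libraries did not overlap in 9 of the 10 genes, nor in 56% of all genes tested. The 9 include Slc7a11, which reached the filter's level only in 5azadC replicate 1 and combination replicate 1, so it was counted through groups in which it was high. With 1 library left on either side fewer were called: 1 gene was called without VX680 replicate 1 (Chac1) and 2 were called without VX680 replicate 2 (Asns and Trib3), combination replicate 1 (Asns and Trib3) or combination replicate 2 (Asns and Chac1). Phgdh was also lost with DESeq2 (adjusted p = 0.0574) and the authors' scaling (0.0559). Atf3 changed by 0.04 ± 0.23 (95% interval -0.45 to 0.53), so its levels with VX680 and with both drugs were not distinguished.

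**Figure D3:**
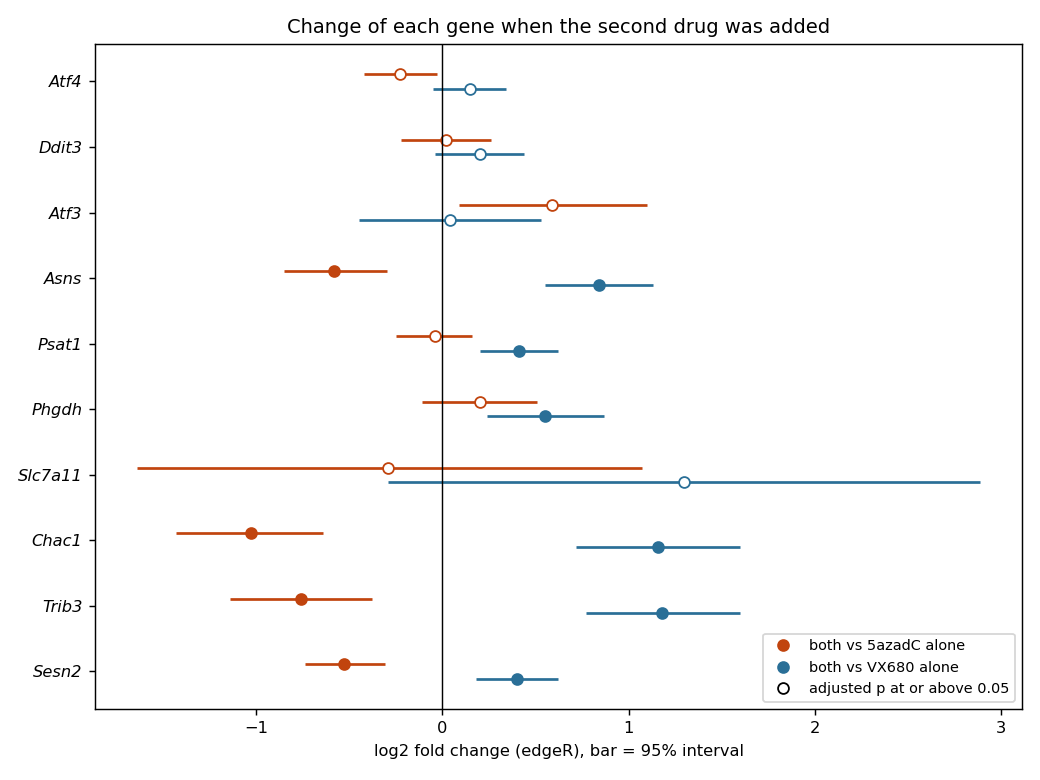
Log2 fold change of each gene in cells with both drugs against cells with 5azadC alone or VX680 alone (edgeR, 2 libraries per group; bars are 95% intervals and open points have an adjusted p of at least 0.05). Asns, Chac1, Trib3 and Sesn2 lie between the single drugs, below 5azadC and above VX680, with filled points on both sides of 0.

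Whether the drugs added on the log2 scale was tested by the interaction (both minus 5azadC minus VX680 plus untreated). Among all genes, it was called negative in 10.6%, positive in 4.95% and in either direction in 15.6%. Of the 10 genes, 5 were called negative and none positive. The values were -2.79 ± 0.39 for Atf3 (adjusted p = 0.000392), -1.07 ± 0.14 for Psat1 (adjusted p = 0.000219) and -0.87 ± 0.14 for Sesn2 (adjusted p = 0.00132). Asns (-0.74 ± 0.19, adjusted p = 0.0184) and Atf4 (-0.48 ± 0.13, adjusted p = 0.0231) completed the 5. In Atf3 and Psat1 each drug alone raised the gene and the combination stayed near the higher single-drug level. For Trib3, which moved in opposite directions, the interaction was 0.17 (95% interval -0.39 to 0.73), and the level with both drugs lay near the sum of the separate changes. Chac1 gave -0.55 (-1.15 to 0.04), with an adjusted p of 0.206. Without untreated replicate 2, VX680 replicate 2 or combination replicate 2, 3 of the 10 were called, since Asns (adjusted p = 0.0686, 0.0854 and 0.0695) and Atf4 (0.0628, 0.0729 and 0.130) were lost. Without combination replicate 1 Asns alone was lost (0.0645), and without untreated replicate 1 or VX680 replicate 1 Atf4 alone (0.0764 and 0.117). Ddit3 (-0.43, adjusted p = 0.0834) was called when no filter on low counts was applied (-0.45, adjusted p = 0.0442).

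The genes most like a member were found for the 7 members whose log2 change against untreated cells reached 1 in size in any treated group, so not for Atf4, Ddit3 or Phgdh. Likeness was the root mean square difference of the 3 log2 changes against untreated cells, among genes whose log2 CPM averaged 1 or more. It is a description over 4 groups in which the untreated libraries enter every change. Nearest to Asns was Eif2ak2, the eIF2 kinase PKR that binds double-stranded RNA and is induced by interferon (difference 0.131). Ifi35, an interferon-induced gene, followed at 0.172 and Samd5 at 0.192. Nearest to Chac1 was the MHC class I gene H2-T23 (0.163), then Apobr (0.272) and Lgals3bp (0.291). Nearest to Sesn2 were the galectin gene Lgals9 (0.0910), the isoleucyl-tRNA synthetase gene Iars (0.105) and Rbm20 (0.116). Atf3 was closest to Diras2 (0.155) and Igsf9b (0.188), and then to Cdkn1a, the p53-induced cell cycle inhibitor p21 (0.189). Psat1 was closest to the adenylate kinase gene Ak1 (0.0566), then to Gm21949 (0.0679) and Gatsl3 (0.0698). Trib3 was closest to Il18bp, which encodes an interleukin-18 binding protein (0.261), then to Msl3l2 (0.29) and P2rx5 (0.315). Slc7a11, which had too few reads to enter as a neighbour and was called in none of the 3 comparisons, was the only one of the 7 whose nearest gene was another member, Asns (0.190). Of the other members that could enter, the one nearest to Asns was Sesn2, at rank 12 of 11778 genes. The one nearest to Chac1 was Asns (rank 16), to Sesn2 it was Asns (rank 58) and to Trib3 it was Chac1 (rank 64). For Atf3 and Psat1 the nearest other member came only at rank 599 (Psat1) and rank 817 (Asns).

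Of the eIF2 kinases, Eif2ak2 had 157 and 90.9 CPM with 5azadC, 46.6 and 53 with VX680, 71.8 and 78.2 with both drugs, and 41.8 and 45.4 in untreated cells. It rose by 1.51 ± 0.19 in log2 with 5azadC (adjusted p = 3.23e-05) and by 0.79 ± 0.19 with both (adjusted p = 0.00359), and gave 0.19 ± 0.20 with VX680 (adjusted p = 0.452). Its 5azadC libraries lay far apart, with replicate 1 higher, and both stood above all other libraries. The ER stress kinase gene Eif2ak3 (PERK) fell by 0.44 ± 0.12 with VX680 (adjusted p = 0.00642) and by 0.37 ± 0.12 with both (adjusted p = 0.0148). The amino acid sensing kinase gene Eif2ak4 (GCN2) fell with both drugs (-0.43 ± 0.14, adjusted p = 0.0178) and gave -0.28 ± 0.14 and -0.05 ± 0.14 with 5azadC and VX680, neither called, and the haem-regulated kinase gene Eif2ak1 was not called in any of the 3 (log2 changes of 0.07 to 0.16). Ppp1r15a, the stress-induced subunit that helps dephosphorylate eIF2, rose by 0.61 ± 0.11, 0.97 ± 0.11 and 0.97 ± 0.11 with 5azadC, VX680 and both. Eif2s1, the eIF2 alpha subunit itself, rose by 0.92 ± 0.15, 1.01 ± 0.15 and 1.33 ± 0.15. The counts of related gene lists that follow stand beside the shares of all genes tested, of which 22.6% rose and 19.6% fell with 5azadC, 23.8% and 22.4% with VX680, and 28.4% and 27.3% with both. The lists were chosen with earlier results of these data known. Those shares hold for the fit to all libraries with TMM and the filter. Calls over all genes also fell in each fit without 1 library of the groups compared, except without 5azadC replicate 2. List counts given for such fits are therefore not to be read against those shares. Of the 16 tested genes of kinases, phosphatase subunits and regulators, 8, 9 and 8 rose and 0, 1 and 2 fell in the 3 comparisons, with medians of 0.35, 0.27 and 0.27. With VX680, 5 rose without untreated replicate 2 or VX680 replicate 2, and the fall of 1 was lost without VX680 replicate 1. With both drugs none fell under the authors' scaling, or without untreated replicate 2 or combination replicate 2, and 1 fell without combination replicate 1. With 5azadC 1 fell under RLE scaling or without either 5azadC replicate.

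Among 15 partner and other stress transcription factors, 5 rose and 1 fell with 5azadC, 5 rose and 5 fell with VX680, and 6 rose and 5 fell with both drugs. In percent of the list, 33.3% rose and 6.67% fell with 5azadC, 33.3% rose and 33.3% fell with VX680, and 40.0% rose and 33.3% fell with both. The medians were 0.28, 0.01 and -0.03, beside 0, 0.01 and 0.01 for all genes. Jun, an AP-1 subunit, rose by 1.37 ± 0.09, 1.49 ± 0.09 and 1.55 ± 0.09, and Cebpb, a dimer partner of CHOP and ATF4, by 0.92 ± 0.14, 0.72 ± 0.14 and 0.66 ± 0.14. Atf5, a relative of ATF4 that is itself induced in the response, had 295 and 318 CPM with 5azadC, 206 and 177 with VX680, 166 and 152 with both, and 309 and 383 in untreated cells. It fell by 0.85 ± 0.11 with VX680 (adjusted p = 4.34e-05) and by 1.12 ± 0.12 with both drugs (adjusted p = 2.4e-06). The fallen genes numbered 3 with 5azadC without untreated replicate 1, and 3 with VX680 without VX680 replicate 2.

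**Figure D4:**
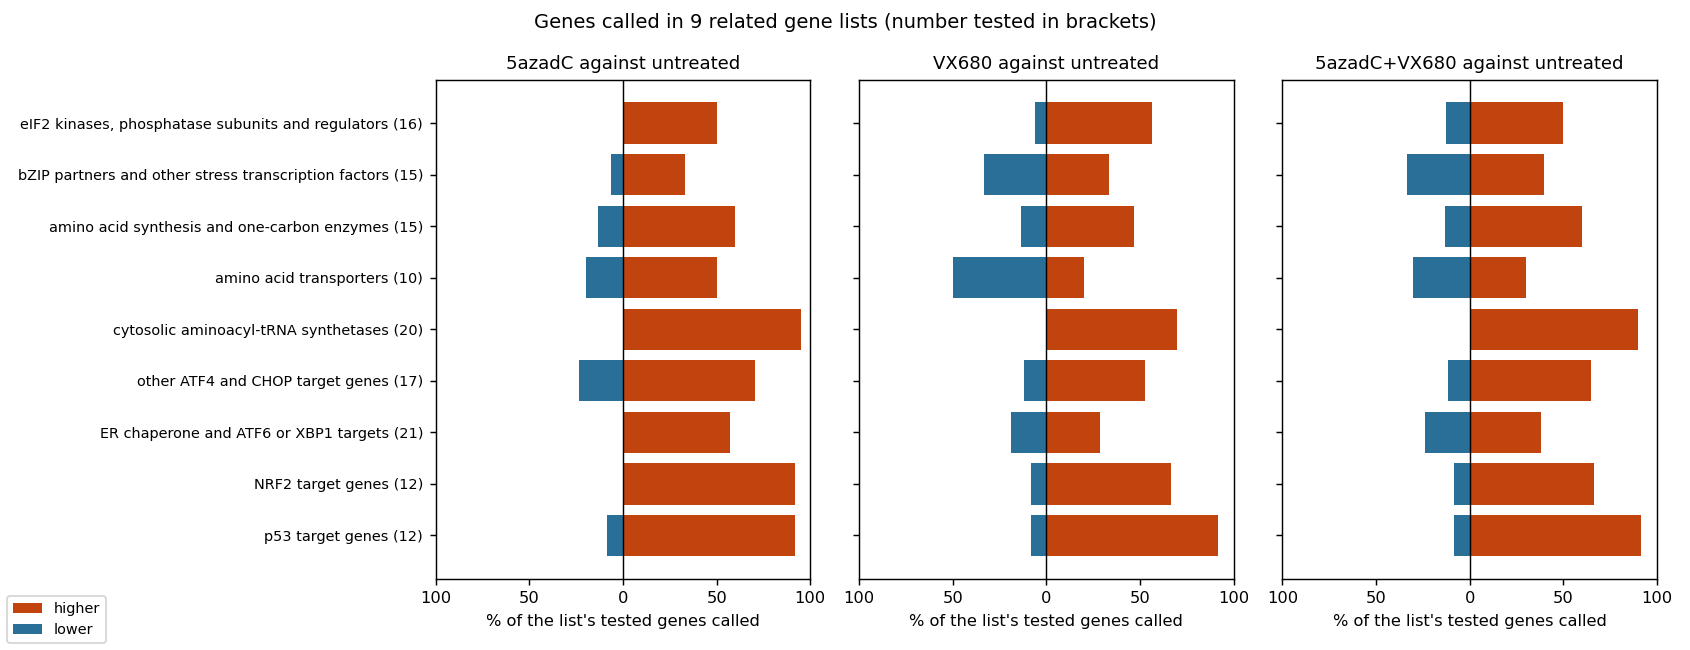
Percentage of the tested genes of 9 related lists that were called higher (right of 0) or lower (left of 0) than untreated with 5azadC, VX680 or both drugs (edgeR, adjusted p under 0.05; the number of genes tested stands in brackets). Aminoacyl-tRNA synthetases had no gene called lower in any of the 3 panels, and amino acid transporters had 5 of 10 lower with VX680.

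All 20 cytosolic aminoacyl-tRNA synthetase genes, whose enzymes load amino acids onto tRNAs, were measured: 19 rose with 5azadC, 14 with VX680 and 18 with both drugs, and none fell. Their medians were 0.71, 0.42 and 0.69. Tars, for threonine, had 238 and 206 CPM with 5azadC, 177 and 176 with VX680, 220 and 236 with both, and 98.4 and 97.9 in untreated cells. Cars, for cysteine, rose by 1.03 ± 0.11, 0.42 ± 0.12 and 0.81 ± 0.12. Without untreated replicate 1 or VX680 replicate 1 fewer of the list rose with VX680, and fewer of all genes tested rose as well.

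Of 15 enzymes of amino acid synthesis and folate-linked carbon transfer, 9 rose and 2 fell with 5azadC, 7 rose and 2 fell with VX680, and 9 rose and 2 fell with both drugs. Shmt2, the mitochondrial enzyme that uses serine for carbon transfer, had 275 and 237 CPM with 5azadC, 175 and 160 with VX680, 219 and 206 with both, and 115 and 119 in untreated cells. Mthfd2, which acts beside it, rose by 0.95 ± 0.11, 0.31 ± 0.11 and 0.68 ± 0.11. Aldh1l2, a mitochondrial folate enzyme, went the other way: it fell by 2.44 ± 0.12 with VX680 (adjusted p = 8.04e-09), by 2.23 ± 0.12 with both drugs and by 0.37 ± 0.11 with 5azadC. With VX680, 4 rose without untreated replicate 1 or VX680 replicate 2, and with 5azadC the fallen genes numbered 0 and 1 without untreated replicates 1 and 2.

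Amino acid transporters were split, with 5 of the 10 tested higher and 2 lower with 5azadC, 2 higher and 5 lower with VX680, and 3 higher and 3 lower with both. The leucine transporter gene Slc7a5 had 160 and 130 CPM with 5azadC, 91.4 and 85.5 with VX680, 118 and 97.1 with both, and 44.8 and 56.3 in untreated cells. Slc7a1, for arginine and lysine, rose by 1.36 ± 0.12, 0.86 ± 0.12 and 1.15 ± 0.12. Slc38a2, a glutamine and alanine carrier, fell by 0.77 ± 0.08 with VX680 and by 0.93 ± 0.08 with both, and the glycine transporter gene Slc6a9 by 1.42 ± 0.19 and 1.65 ± 0.20. With VX680 4 rose with no filter or without either 5azadC replicate, and 3, 3 and 2 fell without untreated replicates 1 and 2 and VX680 replicate 2. With 5azadC 1 fell with DESeq2 or without untreated replicate 1, untreated replicate 2 or 5azadC replicate 2.

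Other genes known as ATF4 or CHOP targets rose in 12 and fell in 4 of 17 tested with 5azadC, rose in 9 and fell in 2 with VX680, and rose in 11 and fell in 2 with both drugs. Trib1, a relative of Trib3, had 46.2 and 28.5 CPM with 5azadC, 29.5 and 28.1 with VX680, 35.9 and 32.2 with both, and 8.16 and 7.04 in untreated cells. The death receptor gene Tnfrsf10b, also a known p53 target, rose by 1.29 ± 0.11, 1.18 ± 0.11 and 1.26 ± 0.11, and Eif4ebp1, a brake on cap-dependent translation, by 1.03 ± 0.10, 0.71 ± 0.10 and 1.14 ± 0.10. Bcl2l11, which encodes the cell death protein BIM, had 21.5 and 18.7 CPM with 5azadC, 17.6 and 18.9 with VX680, 23.9 and 23.0 with both, and 81.1 and 85.5 in untreated cells, a fall of about 2 in log2 in each (-2.05 ± 0.13, -2.19 ± 0.13 and -1.83 ± 0.13). The VX680 falls numbered 1 under the authors' scaling or without untreated replicate 2 or VX680 replicate 1.

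Genes of the endoplasmic reticulum arm rose in 12 and fell in 0 of 21 with 5azadC, rose in 6 and fell in 4 with VX680, and rose in 8 and fell in 5 with both drugs. The share that rose with 5azadC was 57.1%, above the 22.6% of all genes. With VX680 28.6% rose and 19.0% fell, beside 23.8% and 22.4% of all genes, and with both drugs 38.1% rose and 23.8% fell, beside 28.4% and 27.3%. The median changes were 0.31, 0.11 and 0.03. The chaperone gene Hyou1 rose by 0.70 ± 0.09, 0.54 ± 0.09 and 0.43 ± 0.09, while the lectin chaperone gene Calr rose with 5azadC (0.58 ± 0.09, adjusted p = 0.000136) and had 0.12 ± 0.09 and 0.00 ± 0.09 with VX680 and both. Sel1l, of the machinery that clears misfolded proteins, fell by 0.51 ± 0.10 with VX680 and by 0.72 ± 0.10 with both. With 5azadC 7 rose when only those groups were fitted or without untreated replicate 1. With VX680 2 fell under the authors' scaling or without untreated replicate 2 or VX680 replicate 1. With both drugs 3 fell under the authors' scaling or without combination replicate 2, and 5, 5, 4 and 4 rose without untreated replicates 1 and 2 and combination replicates 1 and 2.

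The NRF2 and p53 programmes share target genes with the response: NRF2 also drives Slc7a11, and p53 also drives Sesn2 and Atf3. Of 12 NRF2 targets, 11 rose with 5azadC and none fell, and 8 rose and 1 fell with VX680 and with both drugs. Taldo1, of the pentose phosphate pathway, rose by 1.11 ± 0.09, 1.23 ± 0.09 and 1.46 ± 0.09, and Gclm, of glutathione synthesis, by 0.87 ± 0.12, 0.80 ± 0.12 and 0.95 ± 0.12. Without 5azadC replicate 1, 7 rose with 5azadC. Of 12 p53 targets 11 rose and 1 fell in each comparison, with medians of 1.80, 1.66 and 1.97. Cdkn1a had 274 and 293 CPM with 5azadC, 356 and 341 with VX680, 400 and 407 with both, and 40.0 and 42.5 in untreated cells. The part of either programme in the changes of Slc7a11, Sesn2 and Atf3 was not tested.

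**Figure D5:**
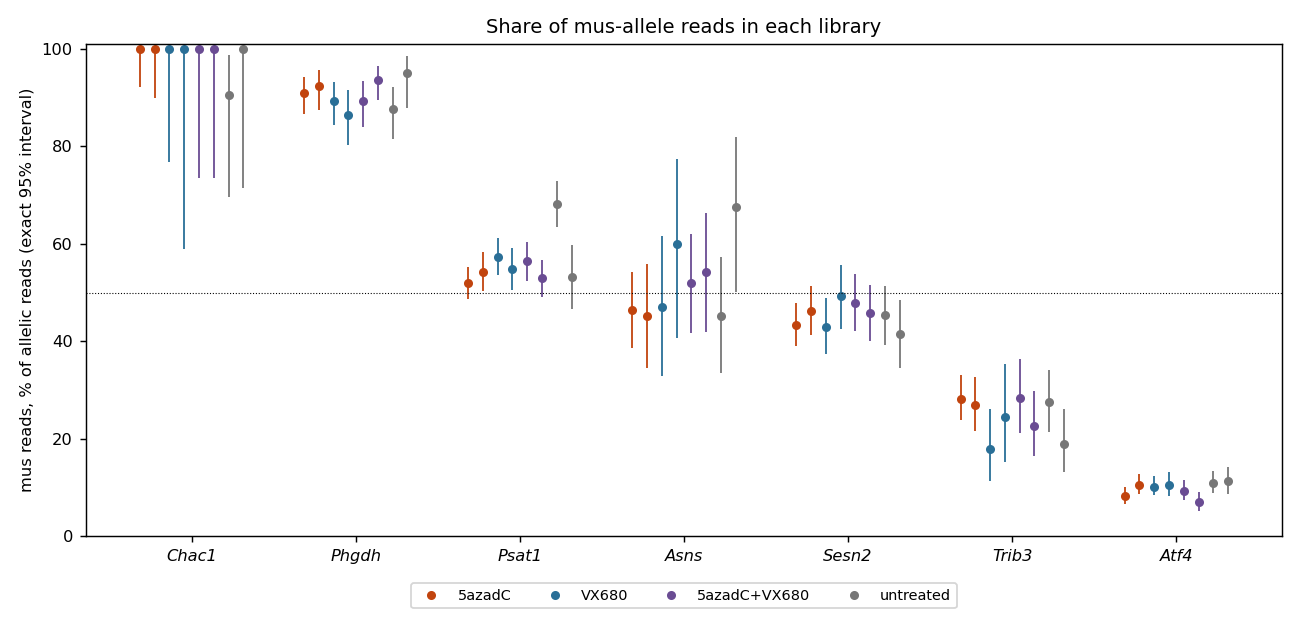
Share of mus reads among allele-assigned reads in each library for 7 of the 10 genes (Ddit3, Slc7a11 and Atf3 are not drawn), with exact (Clopper-Pearson) 95% intervals that cover counting error only; the dotted line marks 50%. Chac1 and Phgdh lie near the top in every group and Atf4 near the bottom, and untreated replicate 1 of Psat1, at 68.2%, stands above the other 7 libraries of that gene.

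Because the cells were F1 hybrids, reads that carry a sequence variant could be told apart as mus (musculus) or cas (castaneus), a readout that the total counts do not use. Over all libraries the mus share was 98.7% for Chac1 (155 of its allelic reads were mus and 2 cas), 90.5% for Phgdh, 55.6% for Psat1, 49.8% for Asns, 45.2% for Sesn2, 25.4% for Trib3 and 9.70% for Atf4. Across the 10023 autosomal genes that averaged 10 or more allelic reads the median mus share was 47.1%, with 8.32% of genes below a share of 20% and 3.90% above 80%. Chac1, Phgdh and Atf4 thus lay in the outer parts of that distribution, and how far mapping to the 2 genomes contributes to such shares was not tested. Atf3 had 33 mus and 30 cas reads with 5azadC, 62 and 42 with VX680, 55 and 23 with both, and only 9 and 1 in untreated cells. Ddit3 and Slc7a11 had too few allelic reads (14 and 21 over all libraries) for a share per group.

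The mus to cas ratio was tested in 7 members: Atf4, Asns, Trib3, Atf3, Sesn2, Psat1 and Phgdh. In none of the 7 was a change called with any treatment (edgeR, adjusted p between 0.511 and 1). Of 10301 genes, 0.282%, 0.379% and 0.515% were called with 5azadC, VX680 and both. Of the 7, 2 (Psat1 and Atf4) had an unadjusted p under 0.05. The Atf3 test rested on 9 mus and 1 cas untreated reads. The Atf3 log2 ratio changes were -3.09 (95% interval -6.29 to 0.12), -2.62 (-5.84 to 0.59) and -1.91 (-5.3 to 1.48) in the same order. Intervals this wide do not decide whether the Atf3 ratio changed. The Psat1 share was 53.2% ± 1.64 with 5azadC, 56.1% ± 1.75 with VX680, 54.6% ± 2.48 with both and 60.7% ± 10.6 in untreated cells (SD, n = 2 each). The untreated libraries differed, with 68.2% (exact interval 63.4 to 72.8) in replicate 1 and 53.2% (46.6 to 59.8) in replicate 2, and without untreated replicate 2 the 5azadC ratio change was called (-0.93 in log2, adjusted p = 0.0485). The Atf4 share was 9.37% ± 1.70, 10.4% ± 0.163, 8.17% ± 1.66 and 11.1% ± 0.213 in the same order. Chac1 had 0 cas reads in all treated libraries, of 80 allelic reads with 5azadC, 21 with VX680 and 24 with both, and its fitted ratio is therefore not given.

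In the authors' deposited table of the 5azadC comparison, Psat1, Sesn2, Asns and Trib3 rose on both alleles, with log2 changes of 1.77 (cas) and 1.27 (mus) for Psat1, 1.23 and 1.30 for Sesn2, 1.88 and 1.30 for Asns, and 0.91 and 1.29 for Trib3. The authors' deposited table has Atf4 at 0.67 on cas (false discovery rate 0.000463) and 0.38 on mus (0.452), and Phgdh at 0.67 on cas (0.536) and 0.78 on mus (0.0402), so each passed only on the allele that held most of its reads. The ratio test above called no change of the allele ratio for either gene. For Chac1 the authors' deposited table gives 1.78 on the mus allele and -5.44 on the cas allele, the second resting on the 2 cas reads of the untreated group. For VX680 the authors' deposited table lists Trib3 at -0.80 on cas (false discovery rate 0.032) and -0.93 on mus (0.239), Psat1 at 1.32 and 1.01, and Atf4 at 0.39 (0.00752) and 0.26 (0.514).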

How the data were processed

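Total RNA libraries were directional (dUTP), per the labels' protocols. The submitters' processing notes name build mm9, TopHat2 2.0.10, HOMER 4.8 and edgeR, with no role or order. The authors deposited raw counts per gene (composite), counts per allele, a normalized signal that equals the raw counts times 1 factor per library, and tables whose headers give log2 fold changes, log2 CPM, p-values and false discovery rates. Another 32 columns of per-sample values were not used. The length column was used only for CPM per kb.

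Raw counts were tested with edgeR 4.0.16 in R 4.3.3: filterByExpr (minimum count 10), TMM, 1 mean per group over all 8 libraries, quasi-likelihood F tests and Benjamini-Hochberg adjustment over all 12643 genes, with adjusted p under 0.05 called. There were 7 comparisons. SE and 95% intervals come from that fit. Allelic counts were fitted with library terms plus the mus effect of each group, in genes averaging 10 or more allelic reads. The scripts were tested on simulated data. Alternatives were RLE scaling, the authors' scaling, no filter, DESeq2 1.42.0, a replicate block, fits of only the groups compared, each library left out, and allelic minimums of 5 and 20.

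The 10 genes, the 9 lists and the tests were chosen with earlier results of these data known. Named genes are the 10, the eIF2 kinases, genes from among the 3 called with the smallest p in each list and comparison with untreated, and the 3 genes nearest to each member whose log2 change reached 1 in size; not every such gene is printed. No promoter or protein sequences were used here.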

Additional observations from a re-analysis of the deposited data

Results flagged for a closer look

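The effect of VX680 differed between cells with and without 5azadC in 5 of the 10 genes by the interaction term (edgeR, adjusted p under 0.05), beside 15.6% of all genes tested. For Atf3 (interaction -2.79) VX680 changed the log2 level by 0.59 with 5azadC present and by 3.38 without it. For Psat1 (-1.07) the changes were -0.04 and 1.03, for Sesn2 (-0.87) -0.53 and 0.34, for Asns (-0.74) -0.58 and 0.16, and for Atf4 (-0.48) -0.23 and 0.26. Asns and Atf4 lost the call under several left-out libraries, down to 3 of the 10 genes, while Atf3, Psat1 and Sesn2 kept it under every left-out library. Groups of 2 libraries are too small for a test of single outlying libraries.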

How the results depend on the processing

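No change of direction was seen for a called member under any alternative run. Of the comparisons of single members, 909 kept their side of the threshold, 50 lost it and 6 gained it. Counts of members called ranged over the left-out libraries from 3 to 7 for VX680 against untreated, 1 to 6 for the combination against VX680, 3 to 5 for the interaction and 0 to 1 for the allele ratio. RLE or the authors' scaling, DESeq2 and no filter left every such count within 1.5 times. For VX680 against untreated, the calls over all genes also fell when any 1 untreated or VX680 library was left out. The titles' replicate numbers were not taken to pair libraries: replicate differences of any 2 groups correlated between -0.0622 and 0.0326. With a replicate block the counts were 9, 6 and 8 for 5azadC, VX680 and both against untreated and 4, 6, 6 and 5 for the combination against 5azadC, the combination against VX680, 5azadC against VX680 and the interaction; Atf4 with VX680 was the call lost (adjusted p = 0.0504). The interaction could not be fitted with only 2 groups. Low counts limited Slc7a11 and the allele ratio of Atf3. The ratio of Ddit3 was limited by the share of its reads assigned to an allele, at most 0.689% in any library. That of Chac1 was limited by its few cas reads. Over all genes tested, the calls moved by more than 1.5 times in 4 comparisons. For the combination against VX680 (822 calls) there were 1299 with no filter, 2014 when only those groups were fitted, 1566 without either 5azadC replicate and 114 to 176 without a library of the groups compared. For 5azadC against VX680 (1998) there were 1283 when only those groups were fitted and 815 and 801 without VX680 replicates 1 and 2. For the combination against 5azadC (3139) there were 1715 and 1629 without combination replicates 1 and 2, and for the interaction (1967) between 948 and 1229 without untreated replicate 1 or a VX680 or combination replicate.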
